A study of Homo sapiens with 6 samples.

Results

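The replicative DNA polymerases and primase of human cells were followed in H460 cells, a non-small cell lung cancer line, after a single 7 Gy dose of ionizing radiation. The set held 10 genes, namely POLA1, POLA2, PRIM1, PRIM2, POLD1, POLD2, POLD3, POLE, POLE2 and POLE3, chosen by gene symbol. Of these, 9 had a transcript cluster (the array's group of probes for 1 locus) of their own, out of 22465 genes with 1 symbol on the array, and each of the 9 had 1 such cluster. PRIM2 had no cluster of its own: its probes were annotated jointly to PRIM2 and the pseudogene PRIM2BP, so that signal could come from either locus and is given separately and left out of the counts. Both groups were samples of the same line, 3 without radiation (controls, 0 Gy) and 3 given 7 Gy. They were measured as total RNA on 6 Human Transcriptome 2.0 arrays, a short-oligonucleotide array of coding and non-coding transcripts. The labels call the replicates biological but do not say that they were separate cultures, so p-values measure the spread between these samples. The sources used here do not give the time from irradiation to RNA extraction, and a single cell line limits the series as a model.

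DNA is copied by a division of labour. Polymerase alpha-primase lays down a short RNA-DNA primer, polymerase epsilon extends the leading strand behind the CMG helicase, and polymerase delta, clamped by PCNA, extends the Okazaki fragments of the lagging strand. POLA1, POLD1 and POLE encode the catalytic subunits, PRIM1 the catalytic and PRIM2 the regulatory subunit of primase, and the other genes encode accessory subunits. Transcription of many such genes rises at the G1/S transition under E2F factors, which bind GC-rich promoter motifs.

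Irradiated cells had less polymerase and primase mRNA. Of the 9 genes with their own feature, 8 fell and 0 rose at an adjusted p under 0.05 (limma, Benjamini-Hochberg over 67528 transcript clusters), and POLE3 did not pass. At an unadjusted p under 0.05 all 9 were lower, and the unmoderated and trended tests also called 8 lower and 0 higher. The share of all transcript clusters called lower was 2.8% and that called higher 2.25%. Of 22465 genes with 1 symbol, 1239 (5.52%) were called lower and 819 higher. Changes ran from -0.98 for PRIM1 to -0.17 for POLE3 on the log2 scale, with a median of -0.48 against 0.03 over all transcript clusters. For all 9 genes every irradiated array lay below every control array, which was so for 9.41% of all transcript clusters. Fewer cells in S phase and less RNA per cell cannot be told apart in these bulk samples.

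**Figure D1:**
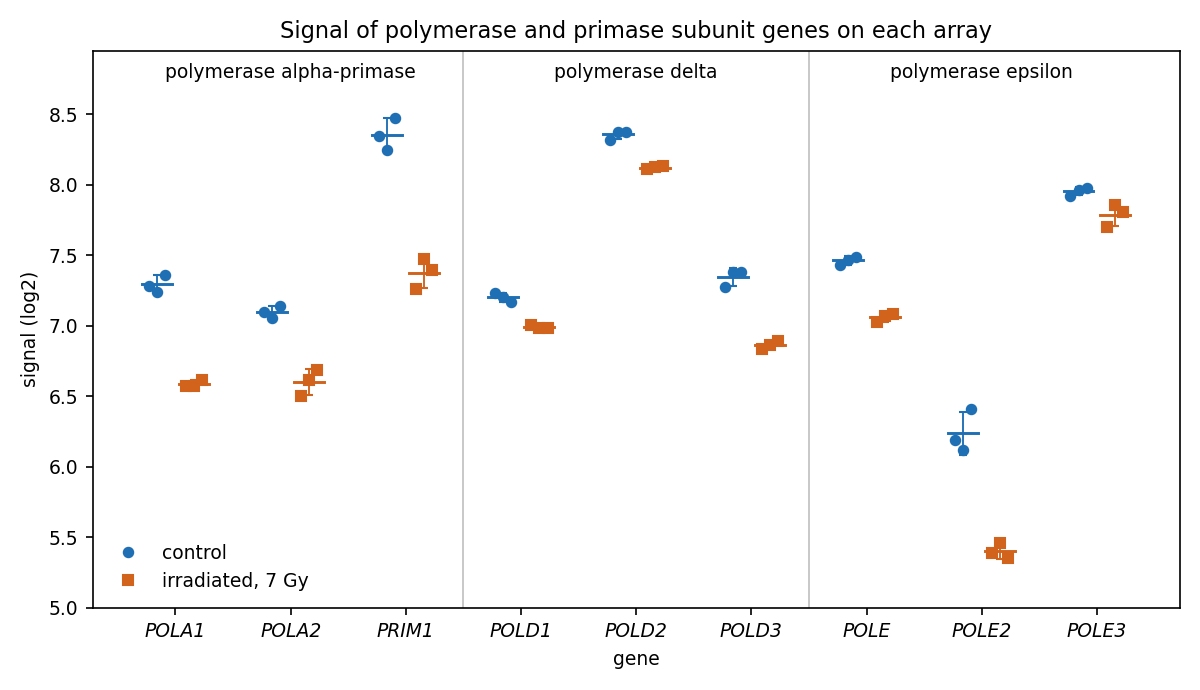
Signal (log2, vertical axis) of 9 subunit genes (horizontal axis, grouped by complex) on each of 3 control arrays (blue circles) and 3 arrays of cells given 7 Gy (orange squares); horizontal lines are group means and error bars are SD. The irradiated arrays sit below the controls for each gene, with the widest separation for PRIM1, POLE2 and POLA1 and the narrowest for POLE3.

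Promoter windows from 250 bases before to 50 bases after the annotated start (RefSeq, GRCh38.p14) were found for 9 of the 10 genes, all but POLD3. The windows were searched on both strands for the E2F-type motifs TTTCGCGC, TTTGGCGC and TTCCCGCC. At least 1 of them was present for 5 genes, namely POLA1, POLA2, PRIM1, POLE and POLE2. None of the 3 was present in any window of POLD1, POLD2, POLE3 or PRIM2. Among all 35116 promoter windows, 4.24% held at least 1 of the 3, and 5.11% of 27305 genes had such a window. The 9 genes had 13 windows, of which 5 held at least 1. The whole windows of PRIM1 and POLE2, which had the lowest irradiated-to-control ratios, and that of POLD2, which lacked these motifs, are printed below with shorter stretches of POLA1, POLA2 and POLE around their motifs. Sequences run 5′ to 3′ on the strand of the gene, and capitals mark the E2F-type motif, which reads as its reverse complement where it lies on the other strand.
PRIM1, chr12:56752274-56752573, minus strand: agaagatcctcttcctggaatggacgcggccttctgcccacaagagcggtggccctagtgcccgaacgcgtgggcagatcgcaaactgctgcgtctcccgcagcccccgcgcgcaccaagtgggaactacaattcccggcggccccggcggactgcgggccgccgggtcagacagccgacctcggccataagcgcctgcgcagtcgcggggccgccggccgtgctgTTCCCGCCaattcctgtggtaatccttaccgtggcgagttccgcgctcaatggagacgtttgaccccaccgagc
POLE2, chr14:49688165-49688464, minus strand: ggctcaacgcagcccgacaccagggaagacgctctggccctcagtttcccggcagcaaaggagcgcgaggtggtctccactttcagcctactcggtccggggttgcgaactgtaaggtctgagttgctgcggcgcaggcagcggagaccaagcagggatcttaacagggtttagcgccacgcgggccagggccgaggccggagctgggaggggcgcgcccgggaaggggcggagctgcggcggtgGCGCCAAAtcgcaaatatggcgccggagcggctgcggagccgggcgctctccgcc
POLA1, chrX:24693756-24693813, plus strand: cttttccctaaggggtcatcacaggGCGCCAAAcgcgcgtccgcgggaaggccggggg
POLA2, chr11:65261884-65261941, plus strand: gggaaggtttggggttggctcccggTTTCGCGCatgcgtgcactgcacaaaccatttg
POLE, chr12:132687328-132687385, minus strand: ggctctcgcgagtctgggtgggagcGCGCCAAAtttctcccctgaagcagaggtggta
POLD2, chr7:44123499-44123798, minus strand: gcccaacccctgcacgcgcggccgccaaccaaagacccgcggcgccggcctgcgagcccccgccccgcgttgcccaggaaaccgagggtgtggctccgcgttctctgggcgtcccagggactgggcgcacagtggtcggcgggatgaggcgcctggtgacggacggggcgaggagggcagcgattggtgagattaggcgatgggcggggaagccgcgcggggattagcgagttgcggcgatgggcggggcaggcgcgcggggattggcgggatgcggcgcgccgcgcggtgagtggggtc

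Counting the start base as 0, the motif lay at -24 to -17 in PRIM1, -5 to 2 in POLE2, -137 to -130 in POLA1, -53 to -46 in POLA2 and -18 to -11 in POLE. TTTGGCGC was the motif of POLA1, POLE and POLE2 (0.652% of all windows, 0.795% of genes). TTTCGCGC was that of POLA2 (0.515% and 0.63%) and TTCCCGCC that of PRIM1 (3.16% and 3.79%). CCAAT, the motif of the factor NF-Y, was present for POLA1, POLD2, POLE and PRIM1. It was in 34.6% of all windows and for 39.7% of genes, and in PRIM1 it shared 2 bases with the E2F-type motif. The cell cycle element motifs TTTGAA and TTCGAA were present for POLE3 alone among the 9 genes, as TTTGAA. At least 1 of them was in 16.4% of all windows and for 19.5% of genes. A match is a run of letters in this window and was not tested as a binding site. Lack of a match means only that these exact strings were absent. Near matches were not searched, so it does not show that a site is missing.

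All 3 measured genes of polymerase alpha-primase, which starts every new strand, fell. PRIM1, the primase catalytic subunit that makes the RNA primer, read 8.35, 8.24 and 8.47 in control replicates 1, 2 and 3 and 7.26, 7.47 and 7.40 in irradiated replicates 1, 2 and 3 (log2 signal). Its lowest control stood 0.77 above its highest irradiated array. PRIM1 fell by 0.98 (SE 0.08, adjusted p = 0.00111 by limma), to 50.7% of the control level (95% confidence interval 44.5% to 57.6%). POLA1, the DNA polymerase catalytic subunit, read 7.28, 7.24 and 7.36 in controls and 6.57, 6.58 and 6.62 after irradiation. The irradiated arrays lay within 0.05 of each other, and the groups were 0.62 apart. POLA1 fell by 0.71 (SE 0.05, limma adjusted p = 6.47e-04), to 61.2% of control (95% confidence interval 56.5% to 66.3%).

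POLA2, the accessory B subunit that tethers the polymerase, read 7.10, 7.05 and 7.14 in controls and 6.50, 6.61 and 6.69 in irradiated cells. The groups were 0.37 apart, and the irradiated arrays were more spread than the controls (SD 0.09 against 0.04, n = 3 each). It fell by 0.50 (SE 0.06, limma adjusted p = 0.00486), a 1.41-fold decrease. The feature shared by PRIM2, which encodes the iron-sulfur primase subunit, and PRIM2BP read 6.03, 5.93 and 6.09 in controls and 5.51, 5.61 and 5.58 after irradiation. This shared signal fell by 0.45 (SE 0.06, limma adjusted p = 0.00659), with no overlap between groups.

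All 3 measured polymerase delta genes of the set fell. POLD3, the accessory subunit that links the complex to PCNA, read 7.27, 7.38 and 7.38 in controls and 6.83, 6.87 and 6.89 in irradiated cells. It fell by 0.48 (SE 0.05, limma adjusted p = 0.00279), to 71.6% of control. POLD1, the catalytic and proofreading subunit, read 7.23, 7.20 and 7.17 in controls and 7.00, 6.98 and 6.98 after irradiation. The 2 groups were 0.16 apart, and POLD1 fell by 0.21 (SE 0.04, limma adjusted p = 0.0371). POLD2, the B subunit that holds the complex together, read 8.32, 8.37 and 8.38 in controls and 8.11, 8.12 and 8.13 in irradiated cells. It fell by 0.23 (SE 0.04, limma adjusted p = 0.0253), with the groups 0.19 apart.

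The calls of POLD1 and POLD2 were lost when any 1 of the 6 arrays was left out, with limma adjusted p from 0.0685 to 0.149 for POLD1 and from 0.0719 to 0.105 for POLD2, while their differences stayed between -0.25 and -0.20. The other 6 called genes kept their calls in each of those 6 fits. POLD4, the smallest subunit of the complex and not in the set of 10, read 7.73, 7.83 and 7.79 in controls and 7.99, 7.93 and 7.93 after irradiation. All its irradiated arrays were above all its controls, but the share of all transcript clusters lying above is not given here. The POLD4 difference of 0.17 (SE 0.05) did not pass (limma adjusted p = 0.112).

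The 3 polymerase epsilon genes of the set had differences from -0.84 to -0.17. POLE2, the B subunit that joins the catalytic subunit to the helicase, read 6.19, 6.12 and 6.41 in controls and 5.39, 5.46 and 5.36 in irradiated cells. Control replicate 3 was the highest array, and the groups were 0.66 apart. POLE2 fell by 0.84 (SE 0.08, limma adjusted p = 0.00201), to 56.0% of control (95% confidence interval 49.2% to 63.8%). POLE, the catalytic and proofreading subunit, read 7.43, 7.47 and 7.49 in controls and 7.03, 7.07 and 7.08 after irradiation. Within each group its arrays lay within 0.06 of each other. POLE fell by 0.40 (SE 0.04, limma adjusted p = 0.00346), to 75.6% of control.

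POLE3, a histone-fold subunit that also belongs to a chromatin remodelling complex, read 7.92, 7.97 and 7.98 in controls and 7.70, 7.86 and 7.81 in irradiated cells. The nearest arrays of the 2 groups were 0.07 apart. Its difference of -0.17 (SE 0.05, 95% confidence interval -0.29 to -0.04) did not pass (limma adjusted p = 0.156, unadjusted p = 0.0171). POLE4, the histone-fold partner of POLE3 and not in the set of 10, read 6.62, 6.70 and 6.62 in controls and 6.54, 6.51 and 6.54 after irradiation. Its difference of -0.11 (SE 0.05) did not pass either (limma adjusted p = 0.246).

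**Figure D2:**
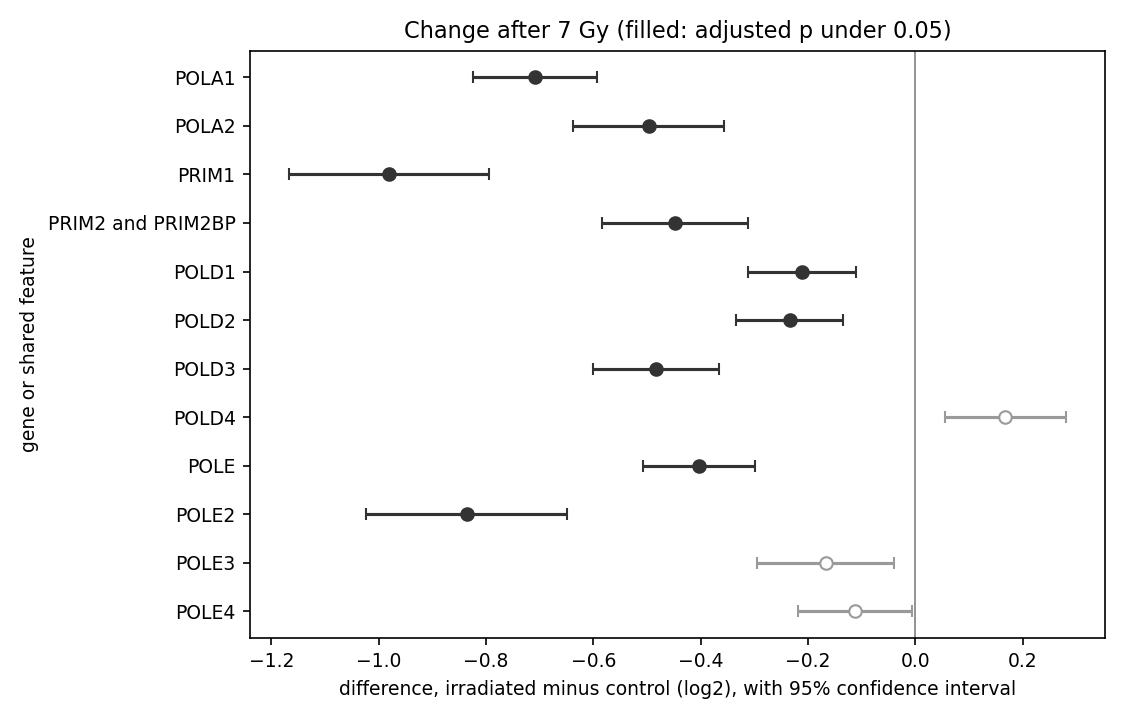
Difference between irradiated and control arrays (log2, horizontal axis) with its 95% confidence interval from limma for each subunit gene and for the feature shared by PRIM2 and PRIM2BP (vertical axis); filled points passed at an adjusted p under 0.05 and open points did not. POLD4 is the gene plotted with a positive difference (0.17), and PRIM1 lies farthest to the left (-0.98).

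Whether subunits of 1 complex changed by unequal amounts was examined within arrays. The log2 ratio of each subunit to its catalytic subunit was taken within each array and compared between groups with a two-sided exact permutation test, for 6 ratios. The ratio of POLE2 to POLE was -1.24, -1.35 and -1.08 in controls and -1.64, -1.61 and -1.73 after irradiation, a change of -0.43. The ratio of POLE3 to POLE was 0.49, 0.50 and 0.49 in controls and 0.68, 0.79 and 0.72 after irradiation, a change of 0.24. On every irradiated array the ratio of POLE2 to POLE was below all controls and that of POLE3 to POLE above them. In polymerase alpha-primase, the ratio of PRIM1 to POLA1 changed by -0.27 and that of POLA2 to POLA1 by 0.21, and in polymerase delta that of POLD3 to POLD1 changed by -0.27. For these 5 ratios the groups did not overlap, and each had an exact p of 0.1, the smallest that 3 against 3 arrays can give (0.12 after Benjamini-Hochberg adjustment over the 6). The ratio of POLD2 to POLD1 changed by -0.02 and overlapped (exact p = 0.6). Since probes differ in brightness, only the change of a ratio is read here, not its level. Dim features may also understate changes, so whether these changes reflect unequal changes in RNA was not tested.

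**Figure D3:**
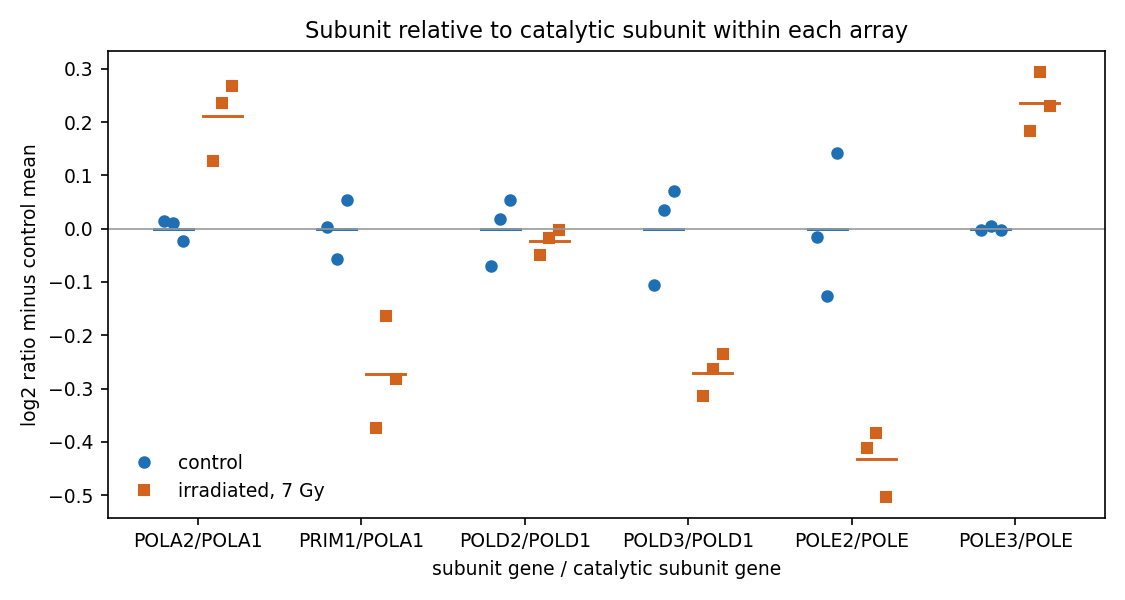
Log2 ratio of a subunit gene to the catalytic subunit gene of its complex within each array, minus the mean ratio of the controls (vertical axis), for 6 ratios (horizontal axis); blue circles are 3 control arrays, orange squares 3 irradiated arrays, and lines are means. The groups are apart for 5 ratios and overlap for POLD2/POLD1.

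The order of the arrays within each group is given for the 9 genes as a description. It was not tested, genes on 1 array are not independent, and no share over all transcript clusters was taken. Control replicate 3 was the highest control for 8 of the 9 genes, and irradiated replicate 1 was the lowest irradiated array for 7 of 9. Averaged over the 9 genes, the signal relative to the control mean was -0.02, -0.03 and 0.05 in control replicates 1, 2 and 3 and -0.55, -0.48 and -0.48 in irradiated replicates 1, 2 and 3. The range within a group was thus several times smaller than the separation of the groups. CDKN1A, which encodes the cyclin-dependent kinase inhibitor p21, read 7.74, 7.73 and 7.45 in the same controls and 8.42, 8.44 and 8.35 after irradiation. Its lowest value was in control replicate 3, while irradiated replicate 1 lay between irradiated replicates 2 and 3. A relation of CDKN1A to the order of the 9 genes was not tested.

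The 6 arrays correlated at 0.994 to 0.998 across transcript clusters, and 3411 of 67528 clusters (5.05%) were called. MDM2, a p53-induced ubiquitin ligase gene used as a check of the treatment labels, rose by 2.06 (SE 0.06, limma adjusted p = 3.12e-05). The simple epithelial keratins KRT8, KRT18 and KRT19 had control means of 10.86, 10.08 and 10.15, while the other epithelial markers EPCAM and CDH1 had 4.04 and 5.17. The lung lineage markers SFTPB and NKX2-1 had control means of 6.03 and 5.90, with NAPSA and SFTPC at 5.56 and 5.46, where array medians were 4.65 to 4.70 and the median of the array's background controls was 3.74. Among 5 measured fibroblast markers, of which COL1A1 (6.47) and COL1A2 (5.36) were the brightest, limma called 0, with 1 higher at an unadjusted p under 0.05. Among 5 measured blood cell markers, of which CD14 (6.18) and CD3E (5.08) were the brightest, limma called 0, with 1 lower at an unadjusted p under 0.05, and the unmoderated and trended tests called 0 of either list. Their summed linear signals were 156 to 167 in controls and 162 to 165 after irradiation for fibroblasts, and 135 to 139 and 128 to 131 for blood. Running numbers in the labels' descriptions place all controls before all irradiated samples, and what they count is not stated, so an effect of that order and the treatment cannot be told apart.

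Partner genes of the replication fork were lower with the polymerases. Of 39 measured fork genes, 27 fell and 12 did not pass, with a median difference of -0.56. Limma called 0 of them higher, also at an unadjusted p under 0.05 and by the unmoderated and trended tests. Among the 11 genes of the CMG helicase, which unwinds the template, 9 fell (median -0.65). MCM6, MCM3 and MCM4, subunits of its ring, fell by 1.49, 1.00 and 0.99 on the log2 scale. Of the 10 genes for the sliding clamp and its loaders 6 fell, and the clamp loader subunits RFC4 and RFC3 fell by 0.89 and 0.59 and the clamp unloader ATAD5 by 0.75. PCNA, the clamp that polymerase delta rides on, was chosen after its value was seen and had a difference of -0.11 (limma adjusted p = 0.351).

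RPA coats the single-stranded template. RPA1 fell by 0.56 and RPA2 by 0.39, while RPA3, named with its value known to complete the complex, had a difference of -0.07 and did not pass. The RPA2 call was lost without control replicate 1 (limma adjusted p = 0.0556). Of 6 genes that mature Okazaki fragments 3 fell. The nuclease genes DNA2 and FEN1 fell by 0.92 and 0.89 and RNASEH2A, the catalytic subunit of RNase H2, fell by 0.68. LIG1, the ligase that seals the fragments, was also picked out with its value known and had a difference of 0.03. Of 9 measured genes that couple or protect the fork, 7 fell, with CLSPN, which mediates checkpoint signalling, at -1.04, MCM10, a helicase activator, at -0.85 and TIPIN, a fork protection factor, at -0.81. POLDIP2 was not analysed here.

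DNA polymerases outside the replicative set, which repair or bypass damage or copy mitochondrial DNA, were called in both directions. Of 14 measured genes 2 fell, 2 rose and 10 did not pass, and their median difference was -0.01. POLH, the polymerase that bypasses ultraviolet lesions, rose by 0.48 (SE 0.05, limma adjusted p = 0.00240) and REV3L, the catalytic subunit of polymerase zeta, by 0.38 (SE 0.05, limma adjusted p = 0.00575). POLQ, the polymerase of microhomology-mediated end joining, fell by 0.41 (SE 0.06, limma adjusted p = 0.00890). MAD2L2, a further subunit of polymerase zeta, was picked out with its value known; it fell by 0.23, and that call was lost when any 1 array was left out (limma adjusted p 0.0731 to 0.136). The summed linear signal of the 14 genes was 1031 to 1036 in controls and 1044 to 1065 in irradiated cells, against 1730 to 1821 and 1238 to 1302 for the 9 replicative genes. The difference between the lists was not tested as a set.

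Markers of the G1/S and G2/M phases were measured beside the polymerases. Of 23 measured G1/S markers outside the sets above, 22 fell (median -0.54). The unmoderated test called 20 lower, and some of the 22 calls were lost when 1 array was left out. The summed linear signal of the 23 was 4808 to 5039 in controls and 3049 to 3203 in irradiated cells. RRM2, a subunit of ribonucleotide reductase, fell by 1.57, CCNE2, the cyclin E2 gene, by 1.18 and WDR76 by 1.13 on the log2 scale. Of 49 measured G2/M markers 24 fell and 25 did not pass (median -0.26), and their summed signal was 14350 to 14870 in controls and 11410 to 11670 after irradiation. HJURP, a centromere histone chaperone, fell by 0.83, CENPE, a motor protein of the kinetochore, by 0.77 and ANP32E, a histone chaperone, by 0.77. Limma called 0 G2/M markers higher, while 9 had a positive difference (up to 0.21). Every irradiated array lay below every control for 31 markers and above for 4. The share of all transcript clusters lying above is not given here, so the 4 are not read as a rise. These 4, named after their values were seen, were the mitotic kinase genes NEK2 (0.21) and AURKA (0.11), CDCA8 (0.18) and HMMR (0.13). Of these NEK2, CDCA8 and HMMR were higher at an unadjusted p under 0.05, and the trended test called 1 G2/M marker higher, NEK2, and the unmoderated test 0. The part of the cell cycle distribution in the polymerase result was not tested.

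**Figure D4:**
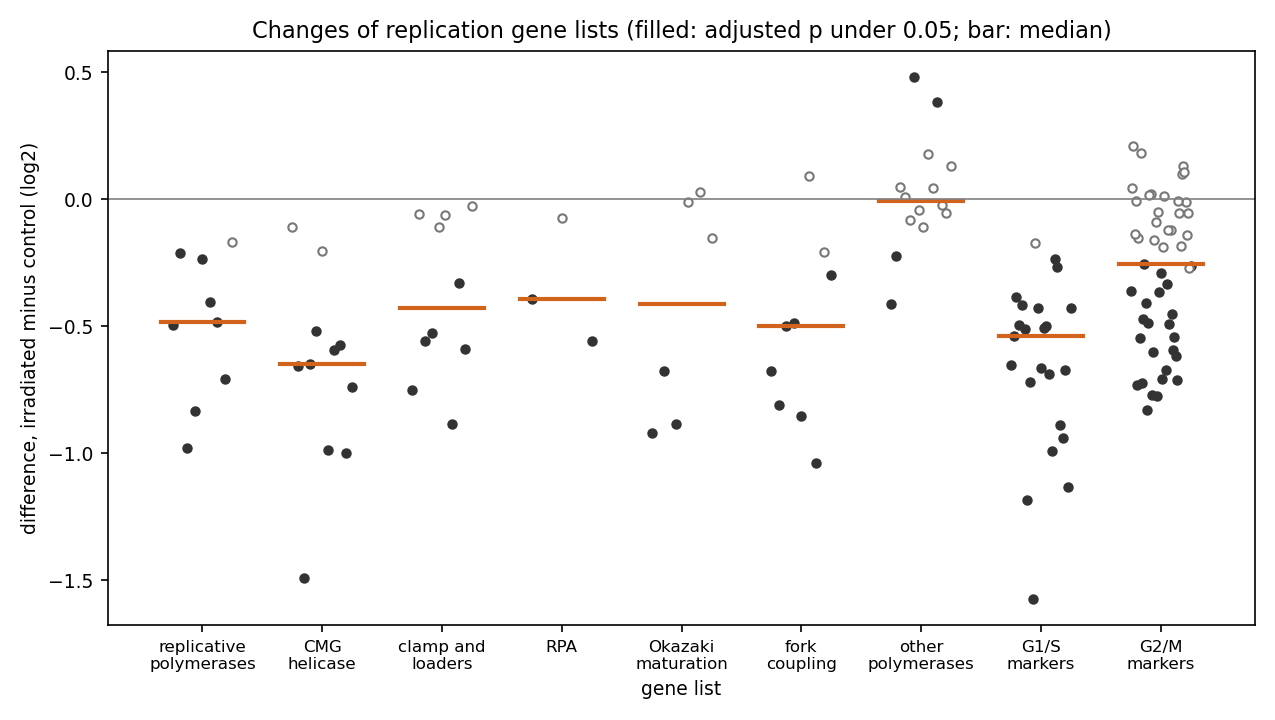
Difference between irradiated and control arrays (log2, vertical axis) for each gene of 9 lists (horizontal axis); filled points passed at an adjusted p under 0.05, open points did not, and bars are list medians. The replicative polymerases (median -0.48) sit with the fork partner and G1/S lists, and the other polymerases spread around 0.

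The promoter windows printed above were set beside the differences. The 5 polymerase and primase genes with at least 1 of the 3 searched E2F-type motifs had differences from -0.98 to -0.40 (median -0.71). The 3 without one that had their own feature, POLD1, POLD2 and POLE3, had -0.23 to -0.17. PRIM2 also lacked a motif, and the feature it shares with PRIM2BP had a difference of -0.45, within the range of the 5. POLD3 (-0.48) had no window. Neither entered this comparison, so the separation holds only for the genes compared. The fork partners with and without a motif overlapped. Their 13 genes with a motif had a median of -0.59 and their 16 without had -0.52, and both ranges reached above 0. The rest of the 39 measured fork genes, among them MCM4, DNA2, ATAD5, RPA2 and RPA3, were not in this comparison. Of the 13, 11 were called lower (84.6%), and of the 16, 9 (56.2%), a difference that was not tested. Over all genes with 1 symbol and a window, 16.8% of 1025 with a motif were called lower against 5.87% of 14222 without, and median signals were 6.49 and 6.02. These shares are descriptions across genes, which are not independent replicates.

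**Figure D5:**
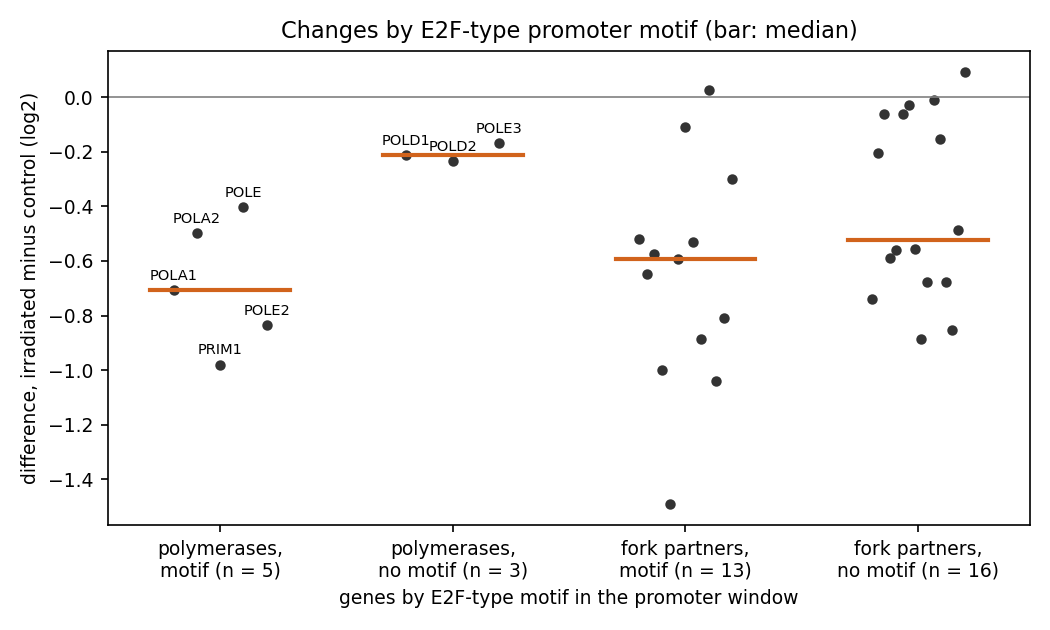
Difference between irradiated and control arrays (log2, vertical axis) of polymerase and fork partner genes, split by whether a promoter window holds an E2F-type motif (horizontal axis); bars are medians. The 5 polymerase genes with a motif lie below the 3 without, and the fork partner groups overlap. The feature shared by PRIM2 and PRIM2BP (no motif, -0.45) and genes without a matched window, such as POLD3, are not plotted.

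Likeness to the mean profile of the 9 genes was measured over 6 arrays as the root mean square difference of log2 values, each taken relative to its gene's control mean, among 2050 other called genes. The nearest were DNMT1, the maintenance DNA methyltransferase, at 0.02, then the interferon-induced gene IFI44, the chaperonin subunit gene CCT5, the co-chaperone gene FKBP4 and the lysosomal galactosidase gene GLA, all at 0.02. Their differences ran from -0.52 for FKBP4 to -0.48 for CCT5. Values were not scaled, so the measure rests mostly on the size of the group difference. Called genes that fell by a similar amount score as alike, and the ranking is a description only.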

How the data were processed

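Total RNA was extracted with TRIzol and biotin-labelled, per the labels' protocols. The deposited values were log2 signals of each feature. By the labels' descriptions they are an RMA gene-level signal, whereas the submitters' processing notes name MAS5, so the summary method is not settled. The sources used here give neither software versions nor the build of the probe annotation, and no detection calls were used. Mean signals of the 23 background controls ran from 2.17 to 11.67 (median 3.74), so whether dim features lay above background is unsettled, and their differences may understate changes. Array number, not depth, limits precision.

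The 67528 transcript clusters of 70523 features entered limma 3.58.1 (R 4.3.3; two-sided, irradiated minus control, no covariate, called at an adjusted p under 0.05) without renormalization. The code was tested on simulated data. The platform annotation gave 23781 clusters 1 symbol, updated by gene identifier; 1543 had several and were not named, and 42204 had none here. The brightest cluster stood for a symbol. PRIM2 was planned among counts and ratios and left out as its cluster is shared.

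The members and gene lists were chosen with earlier results of these data known. By the rule for names, all members, POLD4, POLE4, MDM2 and CDKN1A, up to 3 called genes of the largest absolute change per list (the 2 brightest where none was called) and the 5 most alike genes were named; other names are marked, and all epithelial and lung markers are given. Same-numbered arrays did not deviate together (correlations of deviations -0.07 to -0.01), so replicate numbers were not treated as pairs. Alternatives were leaving out each array, a replicate block, a mean-variance trend, an unmoderated test, quantile normalization, median centring, all features, a mean signal of at least 5 and all features of a symbol.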

Additional observations from a re-analysis of the deposited data

How the results depend on the processing

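The count of replicative genes that fell was 8 with every alternative that kept all 6 arrays and no replicate block, and 6 with a replicate block and on leaving out any 1 array, each time without POLD1 and POLD2; 0 rose throughout. In the block fit the adjusted p was 0.117 for POLD1 and 0.0960 for POLD2. The median difference ranged from -0.50 to -0.45. POLE3 was called under none of its 13 alternatives, and POLD4 was called with a mean signal of at least 5 (limma adjusted p = 0.0425), where fewer features were tested. The fork partner count ranged from 24 to 28. Other polymerases called lower numbered 1 with quantile normalization, a replicate block or the unmoderated test, and 1 to 1 on leaving out an array. RPA2 (adjusted p = 0.0585) and POLQ (0.0512) were not called by the unmoderated test. Transcript clusters called numbered 1598 with the replicate block and 1559 to 2379 on leaving out 1 array, which are fits with fewer degrees of freedom. The change of the POLD2 to POLD1 ratio ranged from -0.058 to 0.0039 on leaving out 1 array, positive without control replicate 3. Of the 6 ratios the other 5 kept their sign on leaving out any array and under both scalings, as did the replicative genes, POLD4, POLE4, CDKN1A, MDM2 and the genes named by the rule from the fork, other polymerase, G1/S and G2/M lists under the alternatives run. The cell type markers, the 5 most alike genes and the genes picked out with their values known were not followed in this way. The median difference of all clusters was 0.03 as deposited and 0.01 after median centring. The number of arrays limits precision, and no detection calls show which dim features exceed background.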
